A study of Danio rerio with 370 samples.

Results

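EBF3, GRM2, ZDHHC23, abi3bpa, RTN4R and a pair of MSI2 copies are genes picked for a high level in one subset of newborn neurons of the adult zebrafish forebrain. It is the subset that the study marks with ebf3a, and the genes were followed here cell by cell and fish by fish. They are 7 of 32266 Ensembl genes counted, and all 7 had reads. They were picked by name, with no numeric threshold, from values of these same cells, for a high level in that subset. Their high level in newborn neurons, their presence in the same cells and their split by EBF3 follow from this choice. All of these are given as a description, without a test. The table carries human-style symbols. EBF3 (ENSDARG00000100244) is the gene called ebf3a in the study, GRM2 is ENSDARG00000004150, ZDHHC23 is ENSDARG00000029039, abi3bpa is ENSDARG00000062156 and RTN4R is ENSDARG00000090035. MSI2 stands on 2 genes, ENSDARG00000032614, called the first MSI2 copy here, and ENSDARG00000033901, the second MSI2 copy, and the annotation used does not say which is msi2a and which msi2b. The second MSI2 copy differed least between cells with and without EBF3 reads, as given below.

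The cells came from adult fish of either sex that carried the her4.1:mcherry and elavl3:GFP transgenes together. In these fish the her4.1 promoter marks radial glia red and the elavl3 promoter marks neurons green. The study states the AB background for its wild-type fish and does not state the background of the transgenic fish. Single cells of the telencephalon and anterior diencephalon were sorted without any other treatment into 3 gates: mature neurons (MN, mCherry negative and GFP positive), newborn neurons (NBN, mCherry low and GFP positive, taken as neurons that still hold red protein inherited from a radial glia cell) and radial glia (RG, mCherry high and GFP negative). Of 370 cells sequenced with SMART-seq2, a full-length protocol that counts reads and not molecules, 264 passed the quality filters, which are 27 of 30 MN, 164 of 169 NBN and 73 of 171 RG cells. The NBN and RG cells came from 6 fish, numbered fish 1 to fish 5 in sequencing batch bfx855 and a single fish in batch bfx811, and the MN cells came from the bfx811 fish only, so batch and fish cannot be told apart there.

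In background terms, new neurons of the adult fish forebrain arise from radial glia along the ventricles, lose glial genes, switch on pan-neuronal genes and then take on a regional and transmitter identity. EBF3 belongs to the COE (Collier/Olf/EBF) family of transcription factors, which act in neuronal differentiation and migration. RTN4R is the Nogo receptor, a GPI-anchored protein that binds the myelin inhibitors RTN4, MAG and OMG and signals through co-receptors. GRM2 is a group II metabotropic glutamate receptor that lowers cyclic AMP through Gi proteins. The Musashi proteins MSI1 and MSI2 bind RNA and control its translation, and are best known from neural and other stem cells. ZDHHC23 is an enzyme that attaches palmitate to proteins, and abi3bpa encodes a protein of the extracellular matrix.

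Passing cells had a median of 191372 reads on genes in the MN gate (99284 to 258967), 270898 in the NBN gate (38724 to 569318) and 211548 in the RG gate (76613 to 549274). Each fish gave 26 to 28 passing NBN cells and 5 to 23 passing RG cells. Levels are given as the percentage of cells with at least 1 read and as CPM, a gene's reads scaled to a common library size after summing over the cells of a fish. In such sums, more cells with a gene and more RNA of it per cell cannot be told apart, so the cell counts stand beside the CPM. Gene lengths were not at hand, and CPM values are therefore compared within a gene and not between genes. Exact Clopper-Pearson intervals on pooled cells cover counting error only.

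EBF3, the transcription factor of the group, was read in 80 of 164 NBN cells (48.8%, 95% interval 40.9 to 56.7), against 7 of 73 RG cells (9.59%). Over the 6 fish the NBN percentage ran between 18.5% in fish 1 and 66.7% in the bfx811 fish with a median of 55.4%, against 0% to 20% in the RG gate, where the median fish had 8.51%. The reads behind these shares were very unequal. EBF3-positive NBN cells had a median of 471.5 reads of the gene and up to 5203, whereas positive RG cells had a median of 2 and up to 78. With at least 10 reads as the bar, 70 NBN cells and 2 RG cells remained. In summed reads EBF3 averaged 1111 ± 596 CPM in the NBN gate and 6.42 ± 14.4 CPM in the RG gate (SD, n = 6 fish each). The lowest NBN fish stood at 135 CPM and the highest RG fish at 35.9 CPM. In percentage of cells the gates overlapped, with 18.5% of NBN cells in fish 1 and 20% of RG cells in fish 3.

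The receptors were read in fewer cells. RTN4R was read in 64 of 164 NBN cells (39.0%, 31.5 to 46.9) and in 0 of 73 RG cells, where 3 counts taken as the limit permit a share of cells with a read of up to 4.11% (4.93% by the exact interval). Neither value limits cells that express the gene without giving a read. It averaged 369 ± 260 CPM in the NBN gate, with a lowest fish of 26.6, a median of 424 and a highest fish of 613 CPM, and 0 CPM in the RG gate of every fish (SD, n = 6). With 3 counts over the group as the floor, RTN4R was at least 2076-fold higher in the NBN gate, and at least 1206-fold without fish 4. That floor takes reads as independent, yet RTN4R-positive NBN cells had a median of 134 reads each. Bounds built on it therefore cover neither the spread between cells nor that between fish. GRM2 was read in 26 of 164 NBN cells (15.9%, 10.6 to 22.4) and in 0 of 73 RG cells, and averaged 174 ± 195 CPM over the NBN fish with no read at all in fish 1. Its fold over the RG floor was at least 806, against at least 459 without fish 4 and at least 510 without the bfx811 fish.

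The pair of MSI2 copies behaved differently from each other. The first MSI2 copy was read in 77 of 164 NBN cells (47.0%, 39.1 to 54.9), against 15 of 73 RG cells (20.5%). It averaged 572 ± 506 CPM in the NBN gate and 72.5 ± 99.5 CPM in the RG gate, and its summed reads were 7.97-fold higher in NBN cells, or 15.3-fold without fish 3. Its gates overlapped, since fish 1 had 41.9 CPM in NBN cells and fish 3 had 272 CPM in RG cells. The second MSI2 copy was read in 31 of 164 NBN cells (18.9%, 13.2 to 25.7), against 16 of 73 RG cells (21.9%), so RG cells held it as often as NBN cells within the counting error. It averaged 77.6 ± 63.9 CPM in the NBN gate and 23.9 ± 38.9 CPM in the RG gate, a spread that overlapped widely. Only uniquely aligned reads were counted, so reads that fit both copies are in neither value.

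ZDHHC23 and abi3bpa, the enzyme and the matrix protein, marked the smallest fractions. ZDHHC23 was read in 15 of 164 NBN cells (9.15%, 5.21 to 14.6) and in 0 of 73 RG cells. It averaged 34.1 ± 57.8 CPM over the NBN fish, and its cells came from fish 2, fish 4 and the bfx811 fish, with none in the other 3 fish. The gene abi3bpa was read in 24 of 164 NBN cells (14.6%, 9.61 to 21.0) and in 0 of 73 RG cells, and averaged 36.1 ± 54.4 CPM with no read in fish 1. Its highest fish was the bfx811 fish at 139 CPM. Against the same RG floor, with the same limit, the summed reads were at least 209-fold higher for ZDHHC23 and at least 145-fold higher for abi3bpa. Fish 4 gave 1182 of the 1536 ZDHHC23 reads, and without it the bound was 41.2. For abi3bpa the bound was 73.0 without the bfx811 fish and 92.3 without fish 2. Thinning every cell to 20000 reads left 12 NBN cells with ZDHHC23, 11 with abi3bpa and 23 with GRM2, with none in the RG gate. It left 72 NBN and 2 RG cells with EBF3, 59 and 0 with RTN4R, 64 and 9 with the first MSI2 copy, and 20 and 6 with the second.

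**Figure D1:**
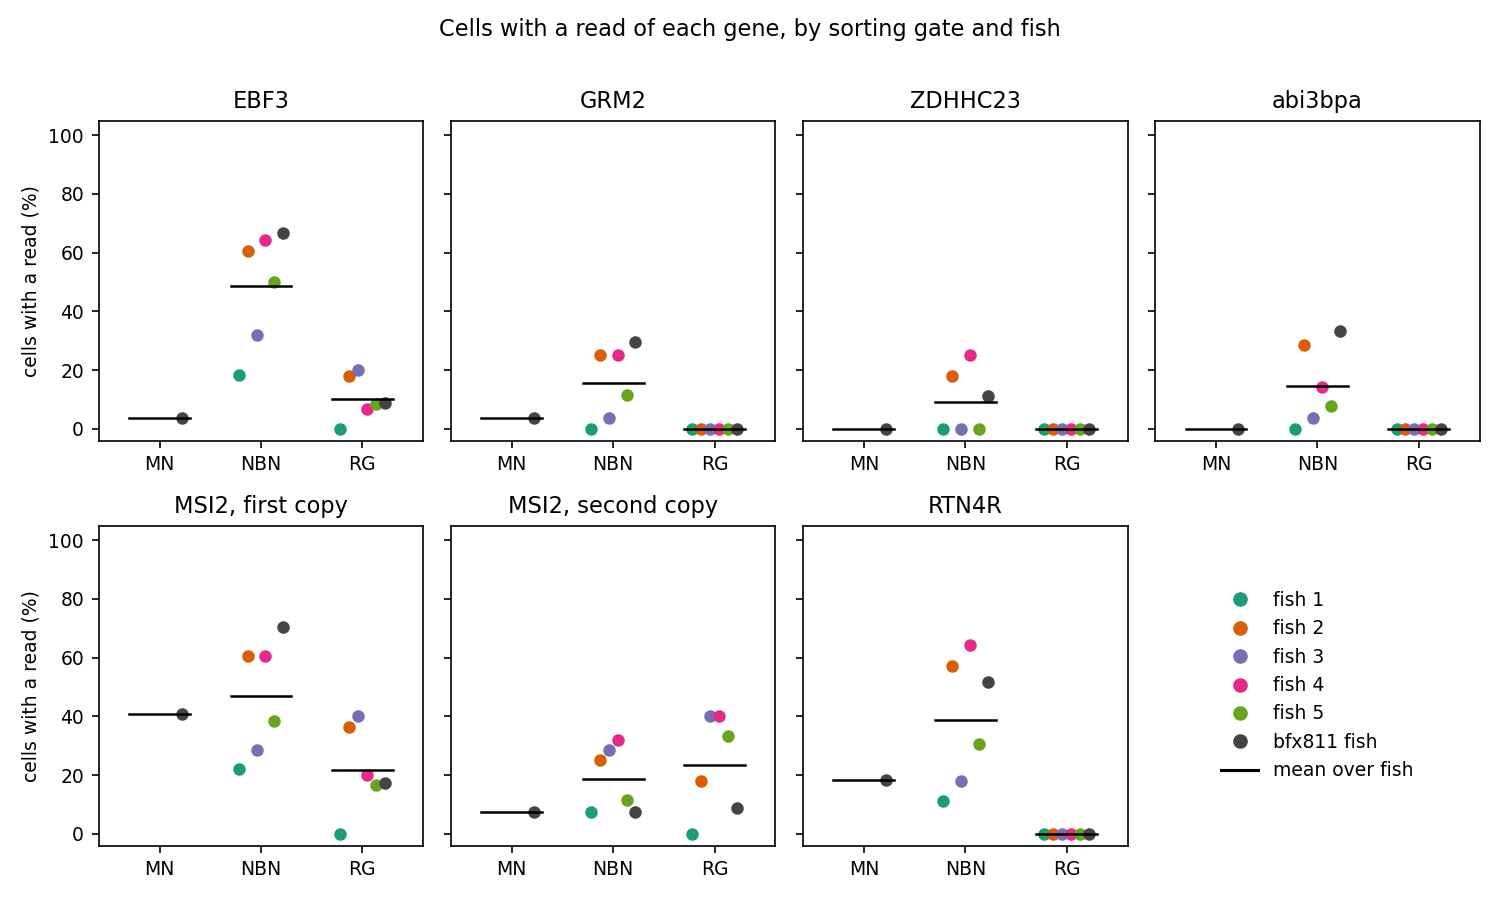
Percentage of cells with at least 1 read of each of the 7 genes in the MN, NBN and RG gates. Points are single fish (6 in the NBN and RG gates, 1 in the MN gate) and bars are the mean over fish. GRM2, ZDHHC23, abi3bpa and RTN4R have no read in any RG fish, whereas the NBN and RG points of the second MSI2 copy (ENSDARG00000033901) overlap.

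In the edgeR quasi-likelihood fit of NBN against RG sums over all genes, 711 of 8393 genes tested had a Benjamini-Hochberg adjusted p under 0.05, which is 8.47% (6.66% higher and 1.81% lower in the NBN gate). Of the 7 genes, 4 passed the filter on low counts (EBF3, both MSI2 copies and RTN4R) and 3 of them were called higher (EBF3, the first MSI2 copy and RTN4R). The call of the first MSI2 copy was lost without fish 2, fish 4, fish 5 or the bfx811 fish. The genes were chosen for their level in these same cells, so nothing is read from that count. The median log2 fold change of all genes tested was 0.69. Of the 5 NBN cells that failed the filters, 3 held EBF3 reads.

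The MN gate could be set against the NBN gate only within the bfx811 fish, which gives 1 sample a group and no test. EBF3 was read in 1 of 27 MN cells (3.70%), a single cell with 141 reads, against 18 of 27 NBN cells of the same fish, at 27.4 and 1835 CPM. RTN4R was read in 5 of 27 MN cells (18.5%) and in 14 of 27 NBN cells, at 35.9 and 613 CPM. GRM2 was read in 1 MN cell and 8 NBN cells, and ZDHHC23 and abi3bpa in 0 MN cells and in 3 and 9 NBN cells. The first MSI2 copy was the exception in how often it was seen, with reads in 11 of 27 MN cells (40.7%) and 19 of 27 NBN cells, at 212 and 1436 CPM. The second MSI2 copy was read in 2 cells of each gate. In this fish, then, MN cells with the first MSI2 copy were frequent while MN cells with EBF3 were almost lacking.

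The fish differed widely, and the genes moved over them together. EBF3 had 5 of 27, 17 of 28, 9 of 28, 18 of 28, 13 of 26 and 18 of 27 positive NBN cells in fish 1, 2, 3, 4, 5 and the bfx811 fish. The first MSI2 copy had 6, 17, 8, 17, 10 and 19 positive cells in the same fish, and RTN4R had 3, 16, 5, 18, 8 and 14. GRM2 had 0, 7, 1, 7, 3 and 8, and abi3bpa had 0, 8, 1, 4, 2 and 9. Fish 2, fish 4 and the bfx811 fish were thus the high ones for all 5 of these genes, and fish 1 was the lowest for each. The second MSI2 copy followed another order, with 2, 7, 8, 9, 3 and 2 positive cells. What share of telencephalic and diencephalic tissue each fish gave is not stated in the labels, and its part in the spread between fish was not tested.

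**Figure D2:**
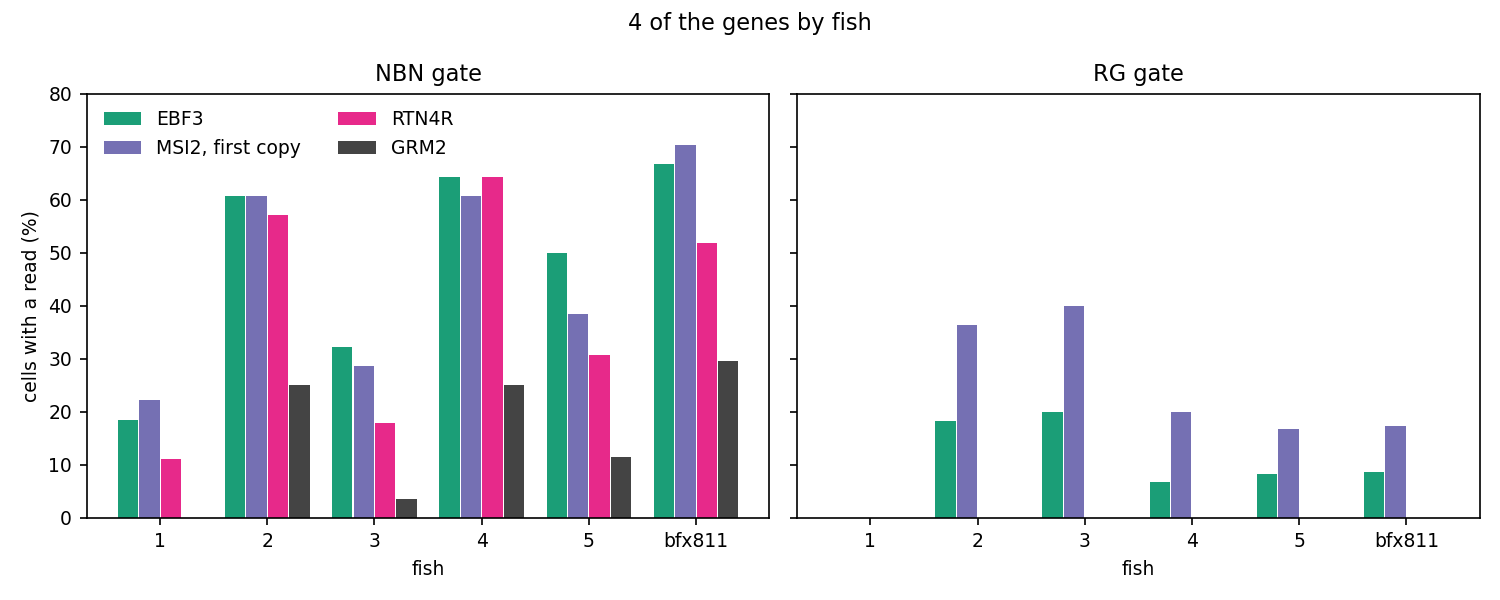
Percentage of cells with at least 1 read of EBF3, the first MSI2 copy (ENSDARG00000032614), RTN4R and GRM2 in each fish, by gate (NBN, then RG). Each bar is 1 gene in 1 fish. In the NBN gate fish 2, fish 4 and the bfx811 fish are high for all 4 genes, and in the RG gate RTN4R and GRM2 stay at 0 in every fish.

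Counted per cell, the 7 genes were not spread evenly. Of 164 NBN cells, 46 had a read of none, 44 of exactly 1, 17 of 2, 13 of 3, 29 of 4, 6 of 5 and 9 of 6 of the genes, and none had all 7. The distribution therefore had a low part at 0 or 1 gene and a second rise at 4. In the MN gate the counts for 0, 1 and 2 genes were 9, 16 and 2 cells, and in the RG gate 43, 22 and 8 cells, with no cell above 2 genes in either gate. Cells with at least 4 of the genes made up 44 of 164 NBN cells (26.8%), and over fish 1, 2, 3, 4, 5 and the bfx811 fish they numbered 1, 11, 2, 14, 4 and 12. All 44 were EBF3-positive.

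**Figure D3:**
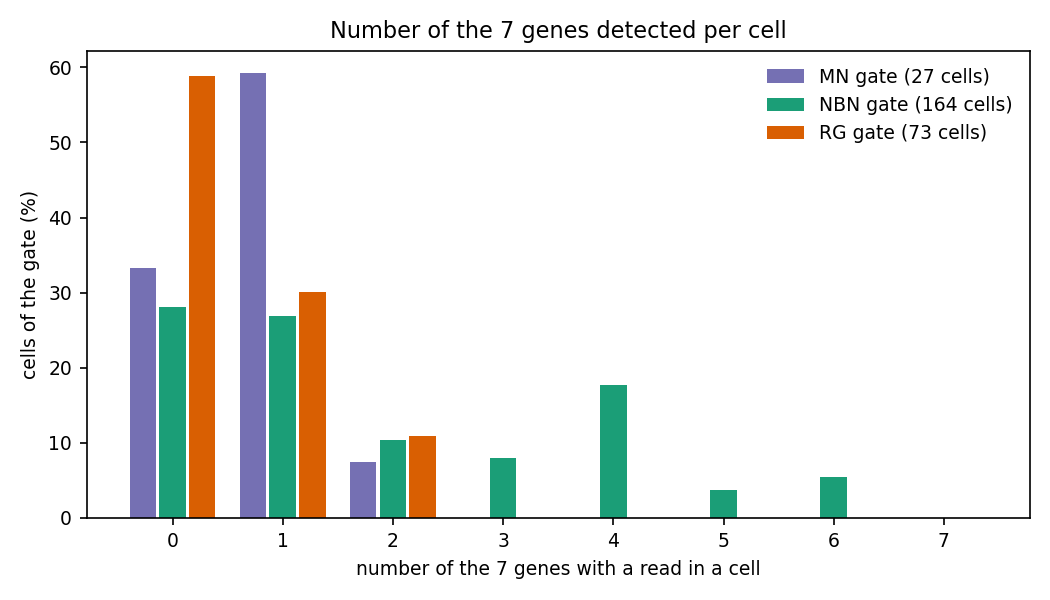
Percentage of cells of each gate by the number of the 7 genes with at least 1 read, pooled over fish (27 MN, 164 NBN and 73 RG cells). MN and RG cells stop at 2 genes, and NBN cells have a further rise at 4 genes (29 cells).

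The rarer markers lay within the commoner ones. All 26 NBN cells with GRM2 and all 15 with ZDHHC23 also held EBF3, as did 23 of the 24 with abi3bpa. Of the 26 GRM2 cells, 25 also held the first MSI2 copy (96.2%). ZDHHC23 and abi3bpa shared cells with each other and with the Nogo receptor, since 11 of 15 ZDHHC23 cells held abi3bpa, 13 of 15 held RTN4R and 21 of 24 abi3bpa cells held RTN4R. The commoner genes reached further beyond EBF3, with EBF3 in 52 of 64 RTN4R cells (81.2%) and in 57 of 77 cells with the first MSI2 copy (74.0%). The second MSI2 copy was the loosest, with EBF3 in 18 of its 31 cells (58.1%).

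**Figure D4:**
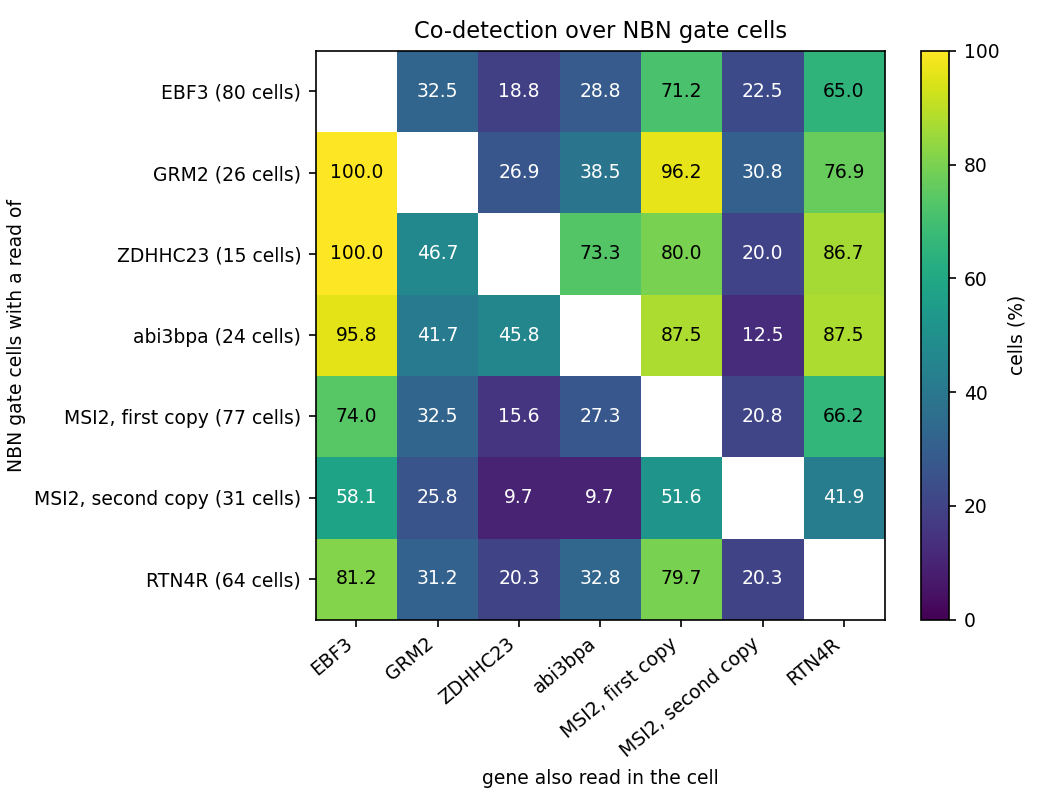
Percentage of the NBN cells with a read of the row gene that also had a read of the column gene, pooled over 6 fish. The GRM2, ZDHHC23 and abi3bpa rows are near 100% in the EBF3 column, and the column of the second MSI2 copy (ENSDARG00000033901) is low in every row but its own.

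Splitting the NBN cells by EBF3 gave 80 EBF3-positive and 84 EBF3-negative cells, both present in every fish. The markers were chosen for a high level in this subset, so their values in the classes are a description only. The first MSI2 copy was read in 57 EBF3-positive cells (71.2%) and 20 EBF3-negative cells (23.8%). Its level was 83.6, 1248, 711, 1347, 407 and 2217 CPM in EBF3-positive cells of fish 1, 2, 3, 4, 5 and the bfx811 fish, against 32.6, 0.291, 17.9, 120, 100 and 30.4 CPM in EBF3-negative cells. The positive sum was the higher one in each fish, and fish 1 had the smallest gap. RTN4R was read in 52 EBF3-positive cells (65.0%) and 12 EBF3-negative cells (14.3%), and averaged 649 ± 398 CPM and 45.7 ± 41.3 CPM (SD, n = 6). Its lowest EBF3-positive fish, at 114 CPM, stood just above its highest EBF3-negative fish, at 102 CPM.

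For GRM2 the split was complete, with 26 EBF3-positive cells and 0 EBF3-negative cells, and 301 ± 311 CPM in EBF3-positive sums. ZDHHC23 divided likewise, 15 cells to 0. For abi3bpa, 23 EBF3-positive cells and 1 EBF3-negative cell had reads, 1065 reads against 1 read, a 1348-fold difference in CPM with a counting interval of 241 to 53288. That interval covers neither the spread between cells nor that between fish. The second MSI2 copy differed least between the classes. It was read in 18 EBF3-positive cells (22.5%) and 13 EBF3-negative cells (15.5%), averaged 115 ± 115 CPM and 35.3 ± 55.6 CPM, and was higher in EBF3-positive cells in only 4 of 6 fish, the exceptions being fish 1 and fish 2.

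**Figure D5:**
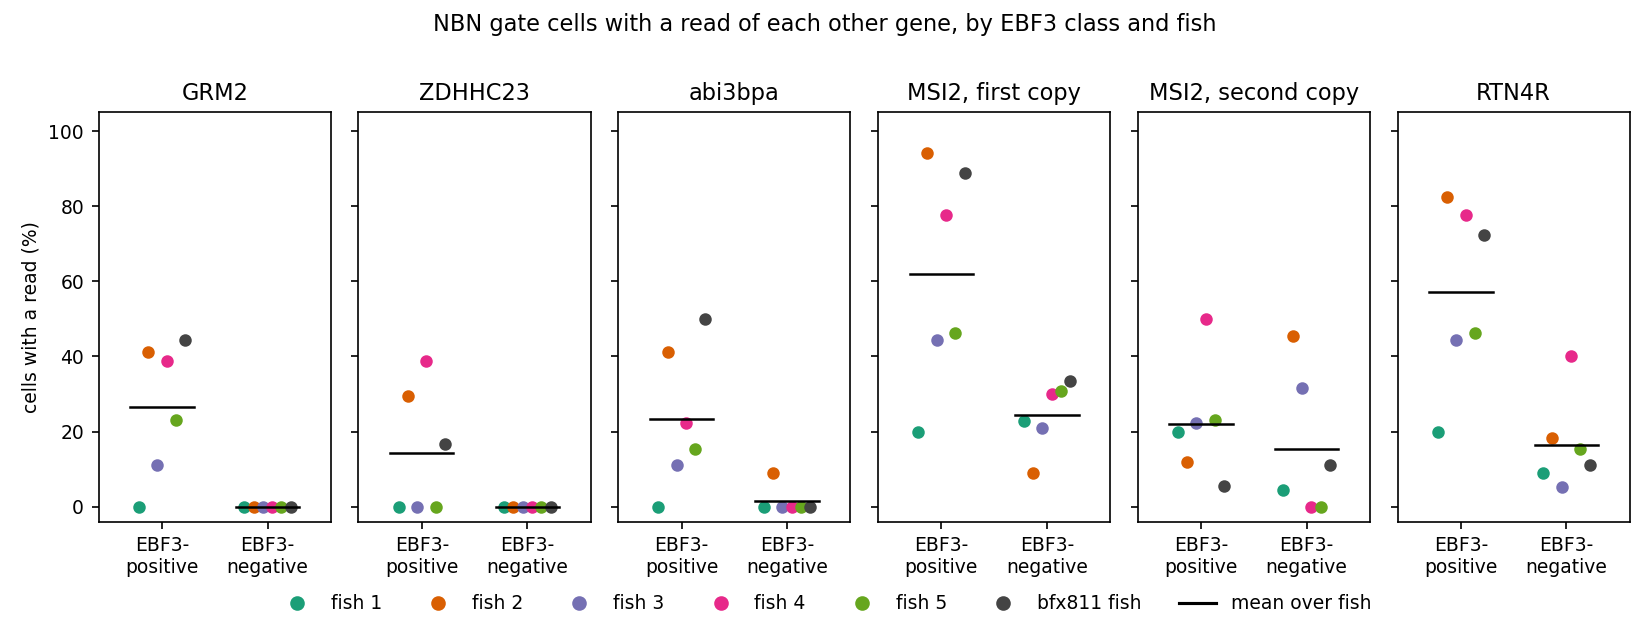
Percentage of cells with at least 1 read of the 6 other genes in EBF3-positive and EBF3-negative NBN cells, with each point a fish and each bar the mean over 6 fish. GRM2 and ZDHHC23 lie at 0 in EBF3-negative cells of every fish, and the points of the second MSI2 copy (ENSDARG00000033901) overlap.

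Cells with few EBF3 reads were compared with those that held many. The 10 EBF3-positive cells with fewer than 10 EBF3 reads had at most 2 each. These 10 cells had GRM2 in 1, ZDHHC23 in 0, abi3bpa in 0, the first MSI2 copy in 4, the second MSI2 copy in 3 and RTN4R in 2 cells. The 70 cells with at least 10 reads had them in 25, 15, 23, 53, 15 and 50 cells. Over all 164 NBN cells Pearson's r of log2(CPM + 10) with EBF3 was 0.68 for the first MSI2 copy, 0.60 for RTN4R, 0.46 for GRM2 and 0.13 for the second MSI2 copy. Over the 70 cells alone it was 0.12, −0.01, 0.06 and 0.15. The first MSI2 copy and RTN4R had an r of 0.70 over all NBN cells and 0.57 over the 70. These are descriptions over cells that share fish and libraries, without a p.

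Within the EBF3-positive cells, the markers were set against 2 further genes. The potassium channel gene kcnj19a, an inward rectifier of the kind that G proteins open, was read in 56 of 80 EBF3-positive cells. Of those 56 cells, 24 held GRM2, 14 ZDHHC23, 22 abi3bpa, 50 the first MSI2 copy and 46 RTN4R, against 2, 1, 1, 7 and 6 of the 24 EBF3-positive cells without kcnj19a. The second MSI2 copy was the exception, in 12 of 56 and 6 of 24 cells (21.4% and 25.0%). EBF3-positive cells with a read of these markers were therefore mostly cells that also held kcnj19a. The cells with kcnj19a were the shallower ones, with a median of 198348 reads against 387028. The study names kcnj19a for the same cluster of these cells, so this overlap is not independent of how the markers were chosen. The tubulin gene tubb5, which the study uses for its other newborn neuron subset, was read in 32 of 80 EBF3-positive cells and 65 of 84 EBF3-negative cells. Of those 32 cells, 8 had at most 2 EBF3 reads and 24 had at least 10, with medians of 2023 and 356 tubb5 reads. The part of the 8 cells in the values below was not tested. EBF3-positive cells with tubb5 held RTN4R in 34.4% and the first MSI2 copy in 53.1%, against 85.4% and 83.3% of the 48 EBF3-positive cells without tubb5. GRM2 was read in 25.0% of the cells with tubb5 and 37.5% of those without, and the second MSI2 copy in 28.1% and 18.8%.

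Other genes were then ranked by how closely they followed EBF3 over the 164 NBN cells, among 5377 genes read in at least 10% of them. The closest was kcnj19a with an r of 0.74, above every one of the other markers. That rank is not independent either, since the study names kcnj19a for the same cluster. Among the 10 closest, the unnamed gene ENSDARG00000104419 had 0.62, the calcium-dependent kinase gene CAMK1G 0.53, and the sodium pump subunit gene ATP1B1 0.50. susd5 had 0.50 and was read in 27 of 80 EBF3-positive and 0 of 84 EBF3-negative cells. The ETS factor gene etv5a (0.49), ZMAT4 (0.47), TP53I11 (0.46) and the homeobox gene UNCX (0.45) were also among them. With cells thinned to 20000 reads 8 of the 10 stayed among the 10 closest, and in the 5 fish of batch bfx855 alone 9 did.

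An edgeR fit of EBF3-positive against EBF3-negative sums over the 6 fish called 2 of 7376 genes tested at an adjusted p under 0.05, which is 0.0271%. They were EBF3 itself, which defined the split, and kcnj19a, which averaged 999 ± 601 CPM in EBF3-positive cells and 4.72 ± 9.95 CPM in EBF3-negative cells (SD, n = 6). Since the study also names kcnj19a for the same cluster, its call is not independent of how the markers were found. kcnj19a had 103 reads in EBF3-negative cells, 94 of them in 1 cell of fish 4. It thus passed the filter on low counts through the EBF3-positive sums, where it is high. Of the other marker genes, 3 passed the filter and 0 were called. Counting EBF3 itself, the fits of this comparison called 1 to 6 of the 7 genes. DESeq2 called 3 of them (with the first MSI2 copy and RTN4R) among the 28 genes it called. A bar of 10 EBF3 reads gave 4 (with GRM2 as well), among 15 genes called of 7952 tested. No filter on low counts gave 6, among 93 called of 20485. The markers were chosen for a high level in this class, so nothing is read from these counts. In the edgeR fit over all 6 fish, 224 genes (3.04%) had an unadjusted p under 0.05. Leaving out a fish moved the count between 1 (without fish 2) and 14 (without fish 5, with 11 without fish 1), and kcnj19a was no longer called without fish 2 (adjusted p = 0.307) or without the bfx811 fish (adjusted p = 0.189).

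The relatives of the marker genes were looked at in both comparisons, starting with the gates. MSI1, another Musashi gene, ran opposite to the first MSI2 copy. It averaged 40.7 ± 19.8 CPM in the NBN gate and 457 ± 143 CPM in the RG gate, was lower in 6 of 6 fish, and fell by 3.26 ± 0.59 on the log2 scale (edgeR, adjusted p = 0.00151). Within NBN cells MSI1 was read in 2 of 80 EBF3-positive and 14 of 84 EBF3-negative cells. A further Musashi gene, msi1a, averaged 4.72 ± 3.76 CPM in the NBN gate and 14.9 ± 31.8 CPM in the RG gate. It was lower in only 3 of 6 fish and was not called (log2 fold change −1.75, edgeR adjusted p = 0.707). The other gene with the symbol GRM2, ENSDARG00000007195, which is no marker, also ran opposite to its namesake, with 78.1 ± 60.8 CPM in the NBN gate and 733 ± 393 CPM in the RG gate (log2 fold change −2.95 ± 0.80, edgeR adjusted p = 0.0240). That call was lost without fish 3, fish 4 or the bfx811 fish, at adjusted p of 0.0534, 0.0616 and 0.0738. It was read in 9 of 80 EBF3-positive and 24 of 84 EBF3-negative cells.

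Of 12 other metabotropic glutamate receptor genes found in the table, 7 could be tested between the gates, and 3 rose and 1 fell, where 6.66% of all genes tested rose and 1.81% fell. Those that rose in NBN cells were GRM5, a group I receptor (46.2 against 0.0471 CPM, adjusted p = 0.0038), GRM7 (32.0 against 0.0632 CPM, adjusted p = 0.00437) and one GRM8 gene, ENSDARG00000076508 (143 against 0.0467 CPM, adjusted p = 0.000168), the last pair being group III receptors, all by edgeR. Each had only 1 read in the summed RG cells and so passed the filter on low counts through the NBN gate. This GRM8 gene averaged 260 ± 205 CPM in EBF3-positive cells and 4.72 ± 8.62 CPM in EBF3-negative cells and was higher in 5 of 6 fish, without passing the test. Of 14 Nogo ligand and receptor genes, 5 could be tested and 1 rose. This was rtn4rl2a, a relative of the Nogo receptor, at 650 ± 940 CPM in NBN and 0.157 CPM in RG cells (edgeR, adjusted p = 3.15e-05), with 27530 reads against 3 and a counting interval of the ratio of 1280 to 18146. That interval takes reads as independent. With only 3 RG reads, rtn4rl2a too passed the filter on low counts through the NBN gate.

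Within NBN cells rtn4rl2a did not follow RTN4R. It was read in 20 of 80 EBF3-positive and 16 of 84 EBF3-negative cells, with 263 and 872 CPM in pooled reads, and was not called. The ligand genes rtn4a (log2 fold change −0.49, adjusted p = 0.742) and rtn4b (162 against 39.4 CPM, log2 fold change 2.26, adjusted p = 0.201) did not pass the edgeR test between gates. The co-receptor gene LINGO1 (ENSDARG00000035899) had 182 CPM in the NBN gate and 40.4 CPM in the RG gate (edgeR, adjusted p = 0.416), and passed once fish entered the fit as a block (adjusted p = 0.0209). Of 29 other ZDHHC genes, 14 could be tested and 0 passed, with 0 at an unadjusted p under 0.05 and 0 by DESeq2. All 14 had a log2 fold change above 0 with a median of 1.24, against 0.69 over all genes. The other gene with the symbol ZDHHC23, ENSDARG00000003899, was too sparse to test. It was read in 3 NBN cells and 4 RG cells, at 6.01 and 15.1 CPM in pooled reads. The remaining EBF genes were too sparse to test, and EBF1 (ENSDARG00000069196) reads were found in 9 of 80 EBF3-positive and 6 of 84 EBF3-negative cells.

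Between EBF3-positive and EBF3-negative cells no gene of these families other than kcnj19a passed the edgeR test. All 5 tested Nogo pathway genes other than RTN4R had a log2 fold change below 0, whereas 3 of 6 metabotropic receptor genes and 6 of 15 ZDHHC genes lay above it, with a median over all genes of −0.04. The potassium channel list, kcnj19a and its relatives, was summed to 1203 CPM in EBF3-positive cells and 137 CPM in EBF3-negative cells, and at least 1 of its 7 genes was read in 67 of 80 and 38 of 84 cells. Without kcnj19a the other 6 genes summed to 163 and 133 CPM and were read in 31 of 80 and 35 of 84 cells, and of the 6 genes of the list that were tested 3 lay above 0 and 3 below.

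Regional genes differed in direction, without any single gene passing the test. Of 10 telencephalic genes tested all 10 had a log2 fold change below 0 in EBF3-positive cells (median −1.30, 2 at an unadjusted p under 0.05, 0 called by edgeR and 1 by DESeq2). Over all genes tested the median was −0.04, 3.04% had an unadjusted p under 0.05 and DESeq2 called 28. The study reports from these same cells that neurod and dlx genes are absent from its ebf3a cluster. The direction of the neurod and dlx genes in the list is therefore not independent. The pallial homeobox gene emx3 averaged 48.6 CPM in EBF3-positive cells and 391 CPM in EBF3-negative cells and was lower in 6 of 6 fish, and NEUROD6 (ENSDARG00000020794), a pallial bHLH factor gene, had 96.9 and 295 CPM, again lower in 6 of 6. BHLHE22, NEUROD4 and the other NEUROD6 gene (ENSDARG00000040008) were each lower in only 3 of 6 fish. Of 9 diencephalic genes only 3 could be tested, and all 3 lay above 0 (median 2.63, 2 at an unadjusted p under 0.05, 0 called). The 3 were lhx1a, lhx5 and TBR1, and the direction of TBR1 is not independent, as given below. lhx1a, a LIM homeobox gene, averaged 189 ± 158 CPM in EBF3-positive cells and was read in 21 of 80 of them, against 5 of 84 EBF3-negative cells. Among the diencephalic genes too sparse to test, LHX9 was read in 3 EBF3-positive and 9 EBF3-negative cells (9.73 and 124 CPM) and OTP (ENSDARG00000014201) in 2 and 2 cells (0.298 and 38.6 CPM). TBR1, which the pallium also uses and which the study names for the same cluster, so that its direction is not independent, had 1455 ± 834 CPM in EBF3-positive cells and 537 ± 267 CPM in EBF3-negative cells and was higher in 6 of 6 fish.

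Counted in single cells, at least 1 of 16 telencephalic genes was read in 60.7% of EBF3-positive cells and 86.2% of EBF3-negative cells as a mean over fish, a difference of −25.5 ± 24.6 percentage points (SD, n = 6) that was lower in 5 of 6 fish. An exact two-sided sign-flip permutation test gave p = 0.09375, where 0.03125 is the smallest p that 6 fish allow, so the difference did not pass. The number of these genes per cell, a measure added after the data had been seen, was 1.80 and 3.37, lower in 6 of 6 fish (exact p = 0.03125). EBF3-positive cells were also shallower, with a median of 250760 reads against 309730 as a mean over fish, a difference of −58970 ± 71512 (lower in 5 of 6 fish, exact p = 0.09375). After thinning to 20000 reads the telencephalic shares were 56.6% and 83.0%, a difference of −26.5 percentage points (same test, exact p = 0.09375). The part of depth in the difference was not tested. With Benjamini-Hochberg adjustment over the 6 measures compared in this way, the thinned ones and the number of genes read included, the exact p-values were 0.09375 to 0.25, and none passed. The telencephalic list includes neurod and dlx genes, which the study reports as absent from its ebf3a cluster. Its measures are therefore not independent of that report.

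Genes of the neuronal state were measured in the same cells. ELAVL3, the pan-neuronal gene behind the GFP reporter, was read in 74 of 80 EBF3-positive and 83 of 84 EBF3-negative cells. Of 9 mature neuron genes tested, 8 lay above 0 in EBF3-positive cells (median log2 fold change 0.71, against −0.04 over all genes). None of the 9 was called by edgeR, and 2 had an unadjusted p under 0.05, as had 3.04% of all genes. Of the 28 genes that DESeq2 called, 1 was in this list, SULT4A1. This brain sulfotransferase gene averaged 566 CPM in EBF3-positive cells and 129 CPM in EBF3-negative cells, and the vesicle calcium sensor gene SYT1 had 425 and 166 CPM, both higher in 6 of 6 fish. The study names sult4a1 and sybu of this list for its MN cluster, drawn from these same cells, so their direction is not independent. All 6 early neuron genes tested lay below 0, with 0 called. The vesicle glutamate transporter gene SLC17A6 stands on 2 genes, read in 35 and 26 of 80 EBF3-positive cells and in 16 and 17 of 84 EBF3-negative cells, while the GABA synthesis genes GAD2 and GAD1 were rare in both, at 8 and 3 EBF3-positive and 7 and 7 EBF3-negative cells.

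Markers of other cells were measured beside these values. In pooled reads the radial glia list summed to 658 CPM in EBF3-positive cells and 1615 CPM in EBF3-negative cells. Of its 8 genes 4 could be tested, and all 4 lay below 0, with 0 called by edgeR. Among these FABP7 (ENSDARG00000007697), a lipid-binding protein gene of radial glia, averaged 104 and 997 CPM over the fish and was lower in 6 of 6. Among the genes too sparse to test, GJA1 (15.1 and 0.0392 CPM in pooled reads) and ID1 (11.9 and 0 CPM) went the other way. her4.1, the Notch target gene whose promoter drives the red reporter, was read in 9 of 80 EBF3-positive and 3 of 84 EBF3-negative cells. Oligodendrocyte precursor genes were read mostly in EBF3-negative cells, and summed to 0.298 CPM over 4 of 80 EBF3-positive cells, against 911 CPM over 12 of 84 EBF3-negative cells, with sums of 0 to 1.93 and 0 to 3075 CPM over the fish. Among them aplnra was read in 0 and 11 cells, SOX10 in 0 and 9, olig1 in 1 and 11, and OLIG2 in 4 and 12. Microglial genes summed to 7.40 and 22.9 CPM and oligodendrocyte genes to 119 and 40.6 CPM. The part of these cells in the differences above was not tested.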

How the data were processed

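Sorted MN, NBN and RG cells were profiled singly by SMART-seq2. The deposited values are raw counts per Ensembl gene, made by the authors from single-end reads aligned to GRCz10 with GSNAP (2017-08-15) and counted with featureCounts (1.5.3), unique alignments only. Without molecular identifiers, counts are reads and not molecules. No sequence of the 7 genes was printed. Cells were kept by the filters of the study's methods: a total over 4.5 on the log10 scale, 2.7 to 3.9 for genes that had more than 1 read (log10), under 50% for the top 50 genes, under 20% mitochondrial reads and over 20% of reads mapped. The filter on spike-ins was not applied, and the rebuilt set of passing cells differs by a few cells in each gate from the set the study used. The replicate was the fish. Fish 1 to 5 came from the numbers in the titles, and the cells of batch bfx811 were taken as 1 fish, because the study counts 6 fish. The fish id in the labels follows the plates instead and so differs from the fish used here. The plate label was used as an alternative unit. P-values measure the spread between these fish.

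Counts were summed per fish and gate, or per fish and EBF3 class (1 read or more, or none), and tested with edgeR 4.0.16 (TMM, filterByExpr, quasi-likelihood test, Benjamini-Hochberg over all genes tested, threshold 0.05) in R 4.3.3. Alternatives were DESeq2 1.42.0, no filter, the fish as a block, leaving out each fish, EBF3 classes set after thinning to 20000 reads and other filters. Shares of cells with a read were also recomputed after thinning. Both sides of each comparison came from the same fish, which pairs them. Deviations of same-fish sums had correlations of −0.0462 to 0.185 between gates and −0.00524 to 0.234 between classes. In simulated data the gate fit recovered 28% of genes changed 16-fold and 87% of those changed 256-fold (7197 genes), and the class fit 42% and 94% (6367 genes). Fold changes against 0 used a floor of 3 counts over the group, which takes reads as independent and does not cover the spread between cells or fish. Python 3.11.15 and scipy 1.17.1 were used for exact tests and intervals.

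The members and lists were chosen with earlier results of these data known. All 7 marker genes were named. Of each list every gene past the threshold and at most 4 others were eligible, together with the 10 genes closest to EBF3, and single further counts were chosen after their values were seen. Lists were matched by symbol (26433 of 32266 genes had one). Some genes that the rule covers are not reported here.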

Additional observations from a re-analysis of the deposited data

Results flagged for a closer look

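Over 43 groups of 6 fish tested for 1 fish far from the others, 8 had such a fish. The rate of about 1 in 20 by chance holds for independent, normally distributed values only. Here some groups share cells and some are 0 in most fish, so nothing is read from the count. EBF3 in RG cells was high in the bfx811 fish, at 35.9 CPM. ZDHHC23 was high in fish 4, at 148 CPM over all NBN cells and 278 CPM over EBF3-positive cells. The single EBF3-negative cell with abi3bpa put fish 2 apart, at 9.09% of cells and 0.291 CPM. The first MSI2 copy was high in RG cells of fish 3, at 272 CPM, the second MSI2 copy in EBF3-negative cells of fish 2, at 146 CPM, and RTN4R in EBF3-negative cells of fish 4, at 40% of cells.

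Cells that failed the quality filters entered only the alternative without those filters. Some of the NBN and MN cells among them held marker reads above the level of RG cells. In the 5 failed NBN cells EBF3 stood at 551 CPM (3 cells), the first MSI2 copy at 507 CPM (3 cells) and RTN4R at 659 CPM (2 cells). In the 3 failed MN cells the first MSI2 copy stood at 1915 CPM, RTN4R at 505 CPM and GRM2 at 335 CPM, each with reads in 1 cell. In the 98 failed RG cells EBF3 stood at 2.59 CPM and the first MSI2 copy at 0.432 CPM.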

How the results depend on the processing

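For a chosen set of genes, shares and counts, 517 values were recomputed under another setting. Of these, 484 kept their direction and side of the threshold or, for shares and counts, moved less than a set margin. A further 14 were no longer past it or were smaller counts, 19 were newly past it or larger counts, and 0 changed sign. Genes outside this set did change sign. BHLHE22 did so between classes in 1 of 13 settings. ZDHHC16 (ENSDARG00000007808) and ZDHHC1 did so between gates in 3 of 11 settings each. Between gates, 711 genes were called, and DESeq2 called 1090, no filter on low counts 1232, the fish as a block 1035, and leaving out a fish 687 to 877. Between EBF3 classes, 2 genes were called, and the fish as a block gave 3 (EBF3, kcnj19a and, lower, CD63), DESeq2 28, no filter on low counts 93 and the plate label in place of the fish 22. A bar of 10 EBF3 reads gave 15, and EBF3 classes set after thinning to 20000 reads gave 5. Leaving out a fish gave 1 to 14 (11 without fish 1, 14 without fish 5). Without the filter, emx3, FABP7, CD99L2 and rtn4rl2a passed as lower and lhx1a and GRM8 (ENSDARG00000076508) as higher in EBF3-positive cells, and SULT4A1 passed in DESeq2. The cause was not tested. The block brought LINGO1 and GRM8 (ENSDARG00000077654, adjusted p = 0.0480) past the threshold between gates, and also ELAVL3 (adjusted p = 0.000374), OLIG2 (adjusted p = 0.0194) and some further genes of the regional and glial lists. It changed no call of a list gene between classes. Without fish 5, the genes called lower included OLIG2, SOX10, olig1, aplnra and aplnrb. Of the 7 markers, 2 to 6 were called between gates over the settings, and the first MSI2 copy was no longer called without fish 2, fish 4, fish 5 or the bfx811 fish. The markers were chosen for their level in these cells, so nothing is read from that count. rtn4rl2a was no longer called between gates without the quality filters (adjusted p = 0.0983). SLC17A6 (ENSDARG00000041150) was no longer called without any 1 of fish 1 to 5 (adjusted p of 0.0749 to 0.130). Leaving out a fish moved the share of NBN cells with EBF3 between 45.3% and 54.7%, with RTN4R between 33.8% and 44.5%, with the first MSI2 copy between 42.3% and 51.8%, and with at least 4 markers between 22.1% and 31.4%. It moved the telencephalic difference between −31.7 and −20.0 percentage points. The fold of EBF3 between gates was 148 over all fish and 1916 without the bfx811 fish, which held 127 of the 135 RG reads. Shares count cells with a read, and cells that express a gene below the depth reached are not covered.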

Other observations

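Among regional genes that are no markers of the EBF3 subset, BHLHE22, a bHLH factor gene, rose in NBN over RG cells (341 ± 240 and 0.0305 CPM, edgeR adjusted p = 2.5e-06). In NBN cells alone it had 379 ± 439 and 377 ± 156 CPM in EBF3-positive and EBF3-negative cells (SD, n = 6), and was higher in 3 of 6 fish. NEUROD6 (ENSDARG00000020794) rose as well (202 ± 81.0 and 0 CPM, edgeR adjusted p = 3.87e-05), with reads in 45 of 164 NBN and 0 of 73 RG cells. DLX5, a homeobox gene of the GABAergic lineage, was read in 8 NBN cells and 1 RG cell (edgeR adjusted p = 0.00438, and 0.0512 with no filter on low counts). In the summed RG cells this NEUROD6 gene had 0 reads, and BHLHE22 and DLX5 had 1 each. These genes therefore passed the filter on low counts through the NBN gate, where they are high.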
